A study of Mus musculus with 12 samples.

Results

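The 10 genes described here encode inflammatory chemokines and cytokines: Cxcl1, Cxcl2, Cxcl3, Cxcl5, Cxcl16, Ccl2, Ccl7, Ccl20, Il6 and Csf1. They were taken by symbol from the 55414 Ensembl genes of the count table, where each matched 1 row, and all 10 passed the filter on low counts that 14919 genes passed. RNA was sequenced from primary mouse hepatocytes in culture, the main parenchymal cells of the liver. By genotype, the labels call the cells WT (wild type) or KO (knockout of Hnf4a). Cells of either genotype received either the DMSO vehicle or MJ041, a compound known only by this code name, which the series title calls a candidate ligand. This gave 4 groups (WT with vehicle, WT with MJ041, KO with vehicle, KO with MJ041) of 3 libraries each. The labels give no dose, treatment time, age or strain of the animals, and do not say how or in which cells Hnf4a was deleted. Since the labels do not tie replicates to different animals or cultures, p-values measure the spread between these libraries only, which may be technical.

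Chemokines are small secreted proteins that draw leukocytes along a gradient. Cxcl1, Cxcl2, Cxcl3 and Cxcl5 encode ligands of CXCR2, the main receptor by which neutrophils find inflamed liver. Ccl2 and Ccl7 encode ligands of CCR2 that recruit monocytes, and Ccl20 encodes the ligand of CCR6 on lymphocytes and dendritic cells. Cxcl16 encodes a membrane-bound chemokine that binds CXCR6. Il6 encodes the cytokine that switches on the acute-phase programme of the hepatocyte through STAT3, and Csf1 encodes the growth factor of macrophages. Transcription of many of these genes is known to be driven by NF-kB after endotoxin, IL-1 or TNF. HNF4A, a nuclear receptor, holds hepatocytes in their differentiated state, and the series title names its dysfunction in sepsis as the subject.

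The libraries held between 16740761 and 17902832 counts. Levels are given in CPM (counts scaled to library size, with the TMM factors of edgeR). The floor given for a count of 0 covers counting error alone, since PCR copies of 1 molecule were not told apart. Hnf4a had 123 ± 12.6 CPM in WT and 65.0 ± 3.57 CPM in KO with vehicle (SD, n = 3), so its transcript was still counted in the libraries labelled KO. All 14 matched hepatocyte markers were counted in each of the 12 libraries, and their summed level lay between 56958.8 and 75410.5 CPM in WT and between 26284.7 and 30906.7 CPM in KO. MJ041-treated WT replicates 1 and 2 stood apart from the other 10 libraries by low markers of other liver cells, and the MJ041 response in WT, its difference from KO and the called genotype differences under MJ041 are given with and without them.

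Promoter sequence was found for 6 of the 10 genes in the RefSeq table at hand (GRCm38.p6), and 5 are shown: those of 3 CXC genes of 1 cluster and of Il6, whose means were lower in KO with vehicle, and that of Ccl20, whose mean was higher. Each line holds the 200 bases before the RefSeq transcription start, 5′ to 3′ on the plus strand, and capitals mark matches to the NF-kB consensus on either strand. The regions are chr5:90891045-90891244 for Cxcl1, chr5:90903699-90903898 for Cxcl2, chr5:90785901-90786100 for Cxcl3, chr5:30012914-30013113 for Il6 and chr1:83116566-83116765 for Ccl20.
Cxcl1: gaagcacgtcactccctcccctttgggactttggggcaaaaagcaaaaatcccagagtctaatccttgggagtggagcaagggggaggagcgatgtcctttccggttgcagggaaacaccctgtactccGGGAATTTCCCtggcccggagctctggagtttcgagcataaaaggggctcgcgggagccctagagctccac
Cxcl2: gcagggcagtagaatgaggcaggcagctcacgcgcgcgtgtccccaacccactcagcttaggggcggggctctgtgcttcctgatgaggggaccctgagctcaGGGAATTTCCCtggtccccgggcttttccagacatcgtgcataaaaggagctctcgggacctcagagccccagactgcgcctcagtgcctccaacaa
Cxcl3: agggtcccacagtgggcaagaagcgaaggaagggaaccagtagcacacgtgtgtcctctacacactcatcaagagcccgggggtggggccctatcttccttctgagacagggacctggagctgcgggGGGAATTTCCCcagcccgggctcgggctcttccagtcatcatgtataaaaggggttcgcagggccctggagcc
Il6: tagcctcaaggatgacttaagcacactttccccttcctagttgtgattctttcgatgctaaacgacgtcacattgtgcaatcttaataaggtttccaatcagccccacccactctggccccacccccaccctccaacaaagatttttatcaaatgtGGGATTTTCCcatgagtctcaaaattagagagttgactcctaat
Ccl20: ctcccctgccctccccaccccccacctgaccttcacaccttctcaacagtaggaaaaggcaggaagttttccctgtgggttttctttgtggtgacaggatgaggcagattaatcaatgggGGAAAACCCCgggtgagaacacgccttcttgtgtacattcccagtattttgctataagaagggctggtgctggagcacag

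The 3 CXC promoters carried the same 10 bases, GGGAATTTCC, which begin 71 bases before the start in Cxcl1, 97 in Cxcl2 and 73 in Cxcl3. In each of them a second match, on the minus strand, overlaps it and begins 1 base later. Il6 had GGGATTTTCC beginning 44 bases before the start, and Ccl20 and Csf1 had a match on the minus strand that begins 80 and 154 bases before it. The consensus was thus present in all 6 promoters with sequence. It occurred in 4.51% of 32851 promoter windows of 300 bases (250 before and 50 after a start). GGGAATTTCC occurred in 0.0883% of these windows. It was picked because more than 1 of the 6 promoters held it, so its presence in 3 of them is no test. The C/EBP motif TTGCNNAA occurred in 1 of the 6, that of Il6 (128 bases before the start, in 10.8% of windows). The AP-1 motif TGANTCA also occurred only in the Il6 window of 300 bases (upstream of the stretch shown, in 7.81% of windows). The HNF4 motif CAAAGTCCA occurred in 0 of the 6 windows and in 0.475% of all. Matches are a description of letters on either strand, and no binding was measured in this series.

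Cxcl1, Cxcl2, Cxcl3 and Cxcl5 are neighbours in 1 chemokine cluster of chromosome 5, with Ppbp, Pf4 and Cxcl15 among them, and Ccl2 and Ccl7 are next to each other on chromosome 11. Cxcl2 and Cxcl3 share 126 sequences of 50 bases between their annotated transcripts (5.84% of those of Cxcl2 and 3.51% of those of Cxcl3), with a longest identical run of 157 bases. How the counting treated such reads is not given in the sources used here, so a part of the reads of these genes could be split between them. Cxcl1 shares no run of 50 bases with either, and Ccl2 and Ccl7 share none with each other.

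Hepatocytes labelled KO had far less Cxcl2 than WT cells with vehicle, 12.2-fold less, and lower Cxcl1, Cxcl5, Ccl7 and Il6, while Ccl20 and Csf1 were higher. With MJ041, WT cells had lower means of all 10 genes, and Cxcl3, Cxcl5, Cxcl16, Ccl2, Ccl7 and Il6 fell past the threshold, calls that were lost when single libraries were left out. KO cells showed no change past the threshold with MJ041. The neutrophil and monocyte chemokines thus stood highest in vehicle-treated WT cells, with the exceptions of Ccl2, whose mean in WT with vehicle was below both KO means, and of Cxcl16, which overlapped KO.

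**Figure D1:**
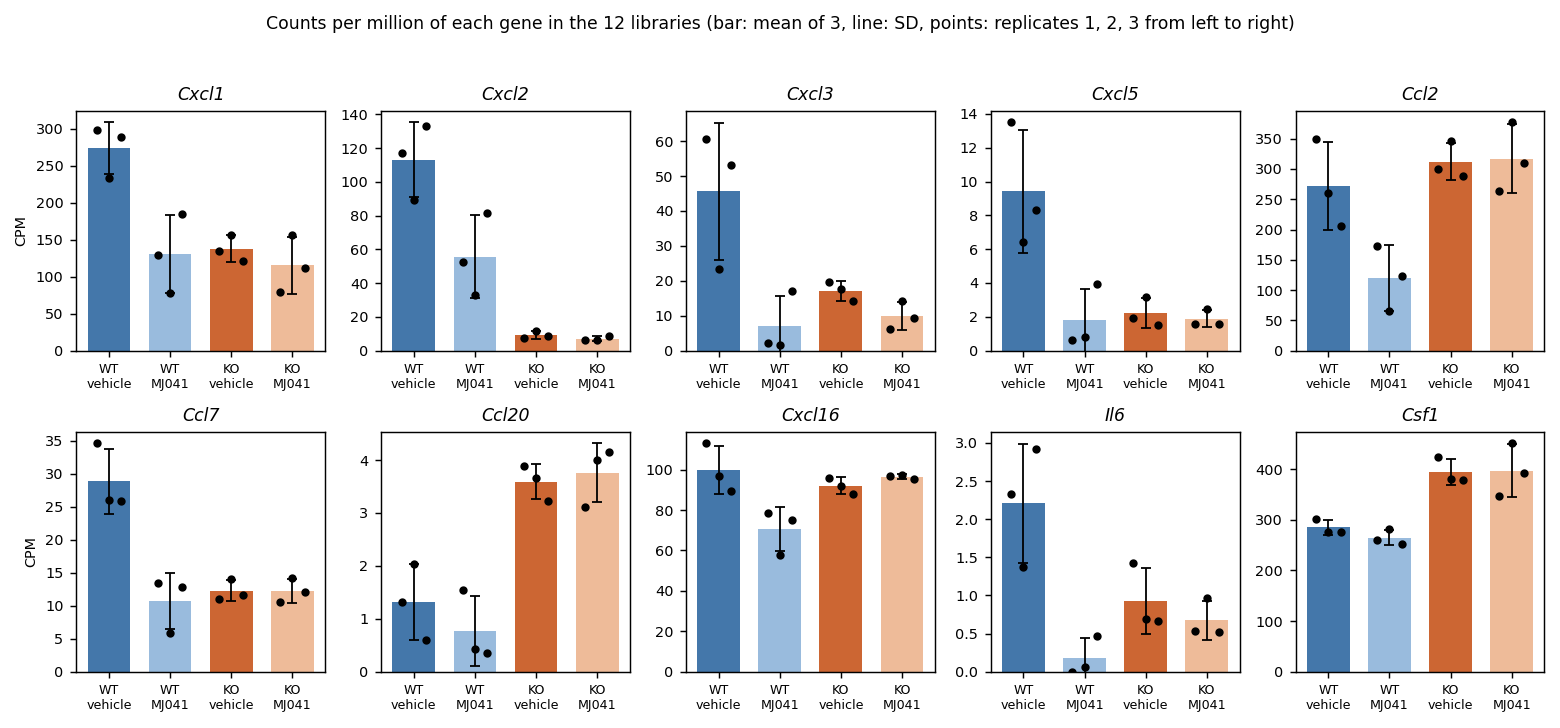
CPM of each gene (y axis, own scale per panel, from 0) in the 4 groups (x axis), with the mean of 3 libraries as a bar, the SD as a line (cut off at 0) and replicates as points. Cxcl2 lay at 6.35 to 11.6 CPM in KO and at 33.0 to 133 CPM in WT, while Ccl20 and Csf1 were higher in every KO library than in any WT library.

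Cxcl2 showed the largest genotype difference of the group. WT libraries with vehicle held 117, 89.1 and 133 CPM, and WT libraries with MJ041 held 52.5, 33.0 and 81.7 CPM. KO libraries held 7.36, 11.6 and 8.86 CPM with vehicle and 6.35, 6.40 and 8.58 CPM with MJ041. All 6 KO libraries were thus below all 6 WT libraries. The log2 fold change of KO against WT was -3.61 ± 0.30 with vehicle (SE, n = 3; adjusted p = 6.67e-07) and -2.97 ± 0.31 with MJ041 (adjusted p = 4.12e-06). With MJ041 in WT, Cxcl2 changed by -1.02 ± 0.25, which did not pass (adjusted p = 0.0567) although the groups did not overlap.

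Cxcl1, its nearest neighbour in the cluster, differed less between the genotypes. It had 299, 234 and 289 CPM in WT with vehicle and 135, 157 and 121 CPM in KO with vehicle, without overlap. It fell in KO by 1.00 on the log2 scale (SE 0.27, adjusted p = 0.00696). With MJ041 the values were 129, 78.3 and 185 CPM in WT and 78.9, 156 and 112 CPM in KO, which overlapped. The WT response to MJ041 was -1.07 ± 0.27 (adjusted p = 0.0593), and KO against WT with MJ041 was -0.18 ± 0.27 (adjusted p = 0.601).

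The count of Cxcl1 per count of Cxcl2 within a library separated the genotypes and overlapped between treatments. It was 2.57, 2.63 and 2.17 in WT with vehicle and 2.47, 2.37 and 2.27 in WT with MJ041. In KO it was 18.3, 13.5 and 13.7 with vehicle and 12.4, 24.3 and 13.1 with MJ041. The genotypes did not overlap with either treatment, and a two-sided exact permutation test of the log2 ratio gave p = 0.1 for KO against WT with vehicle, the smallest that 3 libraries against 3 allow. For MJ041 against vehicle in WT the same exact test gave p = 0.7. Over the 16 tests made on 4 such ratios, the adjusted values (Benjamini-Hochberg) of these exact permutation tests are 0.18 and 0.8.

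**Figure D2:**
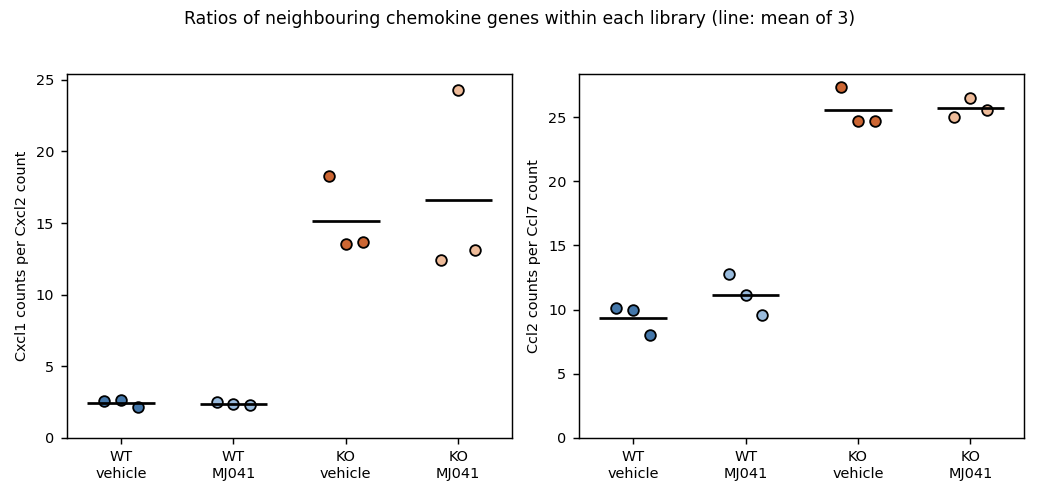
Counts of Cxcl1 per count of Cxcl2 (left) and of Ccl2 per count of Ccl7 (right) in each library (points) of the 4 groups, with the mean of 3 as a line. Both ratios are higher in every KO library than in any WT library, with means of 15.2 against 2.46 and of 25.6 against 9.36 with vehicle.

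Cxcl3 varied widely among the WT libraries. WT libraries with vehicle held 60.5, 23.4 and 53.1 CPM, and those with MJ041 held 2.28, 1.48 and 17.1 CPM. The third treated library thus lay above the other 2 and below all 3 vehicle libraries. Cxcl3 fell with MJ041 in WT by 2.7 on the log2 scale (SE 0.62, adjusted p = 0.0452). KO libraries held 19.6, 17.7 and 14.1 CPM with vehicle and 6.29, 14.2 and 9.22 CPM with MJ041. KO against WT with vehicle had a log2 fold change of -1.42 ± 0.57 that just missed the threshold (adjusted p = 0.0508) without overlap of the groups. It passed with limma voom (adjusted p = 0.018) and in edgeR with only the groups compared (adjusted p = 0.0038), and also without any 1 of the WT libraries with MJ041, vehicle-treated WT replicate 2 or MJ041-treated KO replicate 2.

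The count of Cxcl1 per count of Cxcl3 was 56.6, 53 and 10.9 in WT with MJ041, against 4.95, 10 and 5.44 with vehicle (exact permutation p = 0.1, adjusted 0.18). The first 2 treated libraries thus had far less Cxcl3 for their Cxcl1 than all others.

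Cxcl5 was likewise highest in WT with vehicle, at a lower level. It had 13.5, 6.44 and 8.33 CPM in WT with vehicle, against 0.617, 0.800 and 3.96 CPM in WT with MJ041. KO libraries ranged from 1.5 to 3.19 CPM with vehicle and from 1.58 to 2.46 CPM with MJ041. As for Cxcl3, MJ041-treated WT replicate 3 was the highest of its group. Cxcl5 fell in KO against WT with vehicle (log2 fold change -2.09 ± 0.51, adjusted p = 0.00391) and with MJ041 in WT (-2.38 ± 0.53, adjusted p = 0.0431). The comparison of KO with WT under vehicle and that of MJ041 with vehicle in WT share the 3 vehicle-treated WT libraries.

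Ccl2 and Ccl7, neighbours that attract monocytes, differed in their response to genotype. Ccl2 had 349, 260.2 and 206 CPM in WT and 299.9, 347 and 289 CPM in KO with vehicle, which overlapped. Its log2 fold change was 0.20 with a 95% interval of -0.39 to 0.79 (adjusted p = 0.557). Ccl7 had 34.6, 26.1 and 25.8 CPM in WT and 11, 14.1 and 11.7 CPM in KO with vehicle. It fell in KO by 1.24 on the log2 scale (SE 0.24, adjusted p = 0.000674), with no overlap.

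Both fell with MJ041 in WT. Ccl2 had 173, 64.7 and 123 CPM there, a log2 fold change of -1.17 ± 0.28 (adjusted p = 0.0497, and 0.051 with the RLE scaling). Ccl7 had 13.5, 5.84 and 12.8 CPM, a log2 fold change of -1.42 ± 0.24, and its adjusted p of 0.0294 was the smallest among the 10 genes. For both the second library was the lowest of the treated WT libraries. In KO with MJ041, Ccl2 held 263, 377 and 310.4 CPM and was higher than in WT with MJ041 by 1.40 ± 0.28 on the log2 scale (adjusted p = 0.000936). Ccl7 held 10.5, 14.2 and 12.1 CPM in those libraries, which overlapped WT with MJ041 (0.20 ± 0.25, adjusted p = 0.529).

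The ratio of Ccl2 to Ccl7 counts was 10.1, 9.99 and 7.98 in WT with vehicle and 12.8, 11.1 and 9.61 in WT with MJ041. In KO it was 27.4, 24.7 and 24.7 with vehicle and 25.0, 26.5 and 25.6 with MJ041. The 6 KO values lay within a narrow range above all WT values (two-sided exact permutation p = 0.1 with vehicle, adjusted 0.18, again the smallest possible).

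Ccl20 and Csf1 went the other way with genotype. Ccl20, a low transcript, had 1.31, 2.03 and 0.607 CPM in WT and 3.88, 3.66 and 3.23 CPM in KO with vehicle. It rose by 1.46 ± 0.42 on the log2 scale (adjusted p = 0.0107). With MJ041 it had 1.54, 0.431 and 0.354 CPM in WT and 3.12, 4 and 4.15 CPM in KO, and was higher in KO by 2.27 ± 0.46 (adjusted p = 0.000989). That difference was 3.38 ± 0.62 without MJ041-treated WT replicates 1 and 2 and 3.63 ± 0.47 with the marker covariate described below. The WT groups overlapped, and their difference of -0.75 had a 95% interval of -1.84 to 0.34 (adjusted p = 0.423).

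Csf1, the macrophage growth factor, had 302, 276 and 277 CPM in WT and 424, 381 and 378 CPM in KO with vehicle. It rose in KO by 0.47 ± 0.09 on the log2 scale (adjusted p = 0.000584). With MJ041 it stood at 261, 282 and 252 CPM in WT and at 347, 451 and 393 CPM in KO, a difference of 0.58 ± 0.09 (adjusted p = 0.000102). Its MJ041 response in WT was -0.11 with a 95% interval of -0.30 to 0.08 (adjusted p = 0.529), the smallest difference among the 10 genes in that comparison.

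Cxcl16 was steady in KO and lower in WT cells with MJ041. It had 113, 96.7 and 89.6 CPM in WT with vehicle, 78.5, 58.0 and 75.2 CPM in WT with MJ041, 96.1, 92.1 and 87.8 CPM in KO with vehicle and 97.1, 97.5 and 95.2 CPM in KO with MJ041. The treated WT libraries were below all others. It fell with MJ041 in WT by 0.50 ± 0.10 on the log2 scale (adjusted p = 0.0381) and was higher in KO than in WT with MJ041 by 0.45 ± 0.10 (adjusted p = 0.00251). The genotypes overlapped with vehicle (-0.12 ± 0.10, adjusted p = 0.354).

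Il6 had the fewest counts. It had 41, 23 and 53 counts in WT with vehicle (2.33, 1.37 and 2.92 CPM) and 0, 1 and 8 counts in WT with MJ041 (0, 0.0615 and 0.473 CPM). A count of 0 in the first treated library allows up to 0.185 CPM. All 3 treated libraries were below the vehicle libraries, and the log2 fold change was -3.56 ± 0.65 (adjusted p = 0.0317). KO libraries had 1.43, 0.697 and 0.668 CPM with vehicle and 0.529, 0.972 and 0.525 CPM with MJ041. KO against WT with vehicle was called at -1.25 ± 0.49 (adjusted p = 0.0454) although 1 KO library lay above the lowest WT library. It was not called with DESeq2 (adjusted p = 0.061), nor in edgeR without vehicle-treated WT replicate 1 or 3, vehicle-treated KO replicate 2 or 3, or MJ041-treated KO replicate 1 or 3. With MJ041 the KO libraries lay above all WT libraries, at 1.86 ± 0.76, which missed the threshold in edgeR (adjusted p = 0.0539) and passed in DESeq2 (adjusted p = 0.026). Without MJ041-treated WT replicates 1 and 2 this difference was 0.51 ± 0.72.

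Levels can be compared between genes only per length, here in CPM per kilobase of exons from the GENCODE annotation of GRCm38, which is not the annotation behind the counts. In WT with vehicle Ccl2 was highest (238 ± 63.5), followed by Cxcl1 (146 ± 18.6), Cxcl2 (54.6 ± 10.8) and Csf1 (54.0 ± 2.80), Ccl7 (36.0 ± 6.30) and Cxcl16 (33.1 ± 4.04). Below them were Cxcl3 (13.1 ± 5.6), Cxcl5 (5.05 ± 1.95), Ccl20 (0.922 ± 0.500) and Il6 (0.910 ± 0.322). Cxcl2 and Csf1, Ccl7 and Cxcl16, and Ccl20 and Il6 did not differ beyond their SD. In KO with vehicle Ccl2 (274 ± 26.9) was again highest, and Cxcl2 (4.49 ± 1.04) did not differ beyond its SD from Cxcl3 (4.89 ± 0.798).

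Read over all 10 genes, KO against WT with vehicle gave 7 calls in edgeR at an adjusted p below 0.05, while 54.5% of all 14919 tested genes were called. The 2 higher genes compare with 27.5% of all genes and the 5 lower with 26.9%. Groups did not overlap for 7 of the 10 (63.1% of all genes), 5 lower (31.5%) and 2 higher (31.6%). Since most genes of the table differed between the genotypes, the counts alone say little of these 10. The median log2 fold change was -1.12, against 0 for all tested genes.

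MJ041 against vehicle in WT gave 6 calls, all lower, where 1.02% of all genes were called as lower 1.19% as higher and 2.21% in either direction. The groups did not overlap for 8 genes, all lower, where 9.22% of all genes were so. All 10 fold changes were negative, with a median of -1.12 against 0.03 for all genes. At an unadjusted p below 0.05 there were 8 of the 10 genes and 3219 of all tested genes.

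MJ041 against vehicle in KO gave 0 calls among the 10 genes and 0% of all genes in edgeR. With no adjustment, 0 of the 10 genes and 414 of all genes had p below 0.05, and DESeq2 and voom also called 0 of them. No gene of the 10 had groups without overlap, where 9.51% of all genes did (5.13% higher and 4.38% lower). The log2 fold changes ran from -0.79 (Cxcl3) to 0.07 (Cxcl16 and Ccl20), with a median of -0.11 against 0.01. The 95% intervals were wide for some, from -2.12 to 0.54 for Cxcl3, from -1.67 to 0.77 for Il6 and from -0.57 to 0.61 for Ccl2, and narrow for Cxcl16 (-0.15 to 0.29) and Csf1 (-0.18 to 0.20).

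The difference between the 2 responses was tested as an interaction, the response in KO minus that in WT. It was positive for all 10 genes, with a median of 1.01 against -0.02 for all genes, and 0 of the 10 and 0% of all genes passed in edgeR. Before adjustment 6 of the 10 genes and 1980 of all genes had p below 0.05. The largest differences were those of Il6 (3.10 ± 0.90, adjusted p = 0.195), Cxcl5 (2.14 ± 0.78, adjusted p = 0.255) and Cxcl3 (1.92 ± 0.87, adjusted p = 0.370). Ccl7 had the smallest adjusted p (1.43 ± 0.34, adjusted p = 0.141). DESeq2 called Ccl7 (adjusted p = 0.0093) and Cxcl16 (adjusted p = 0.025), and voom called 0. Without MJ041-treated WT replicate 3 edgeR called 5 (Cxcl3, Cxcl5, Cxcl16, Ccl7 and Il6). Without the filter on low counts edgeR called 7 of the 10 (Ccl7 at an adjusted p of 1.2e-07) and 886 genes in all. That fit tested every gene with any count, also those near 0, so its calls are not shares of the 14919 genes. Whether the responses differ past the threshold thus depended on the fit.

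The interaction also depended on the 2 treated WT libraries low in other cells' markers. Without MJ041-treated WT replicates 1 and 2 it was 1.76 ± 0.80 for Il6, 1.02 ± 0.59 for Cxcl5, 0.63 ± 0.60 for Cxcl3 and 1.18 ± 0.27 for Ccl7. With the marker covariate it was 2.34 ± 0.82 for Il6, 1.5 ± 0.60 for Cxcl5, 1.06 ± 0.60 for Cxcl3 and 1.36 ± 0.38 for Ccl7. In these fits 0 of the 10 passed in edgeR, and 4 and 6 of them had p below 0.05 before adjustment.

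With MJ041, KO against WT gave 5 calls where 54.4% of all genes were called, with 4 higher (26.8% of all genes) and 1 lower (27.6%). The higher genes were Cxcl16, Ccl2, Ccl20 and Csf1, and the lower was Cxcl2. Groups did not overlap for 6 genes (59.2% of all), 5 higher (29.4%) and 1 lower (29.8%). The count of calls is near the share of all genes.

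**Figure D3:**
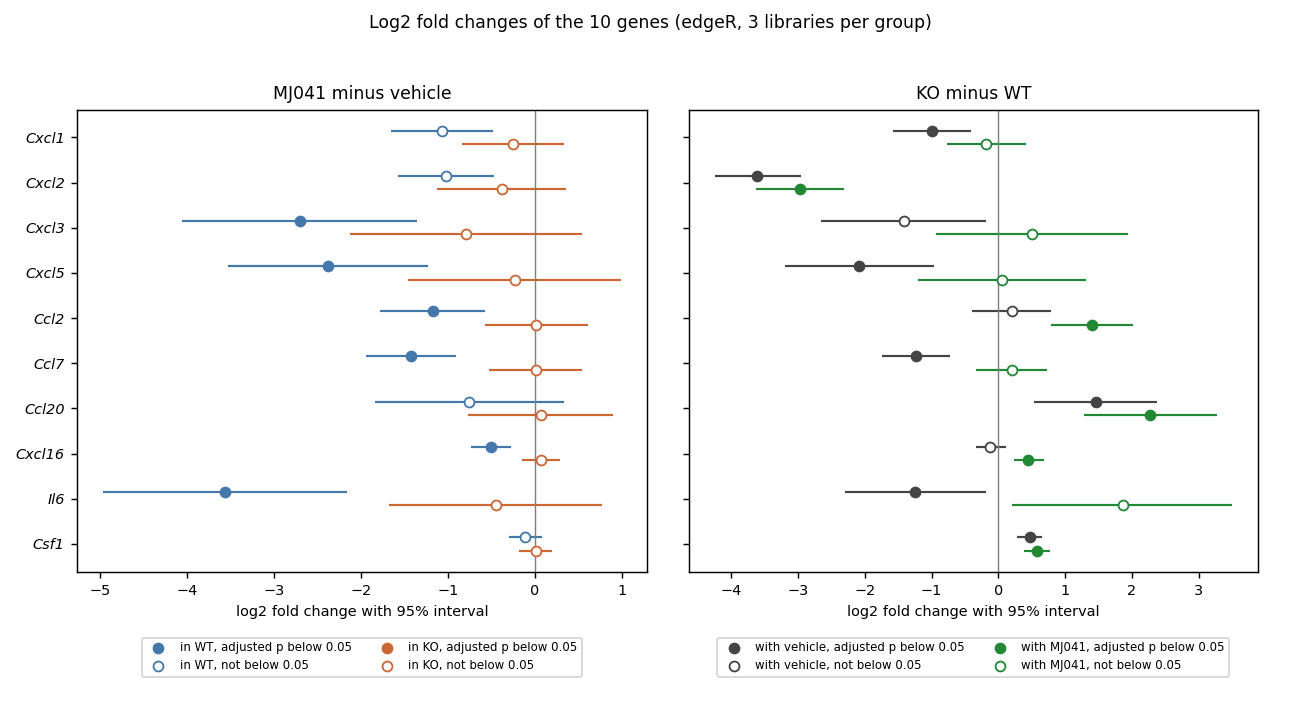
Log2 fold changes (x axis) of the 10 genes (y axis) from edgeR with their 95% intervals as lines, for MJ041 against vehicle in WT and KO (left) and for KO against WT with vehicle and with MJ041 (right). Filled points have an adjusted p below 0.05, as 6 genes do for MJ041 in WT and 0 in KO.

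Markers of other liver cells were low in 2 of the 3 WT libraries with MJ041. The 18 Kupffer and macrophage markers summed to 197, 247 and 423 CPM in WT with MJ041 and to 344, 275 and 559.8 CPM with vehicle. The 16 endothelial markers summed to 195, 212 and 358 CPM against 339, 306 and 492 CPM. The 18 stellate and fibroblast markers summed to 74.8, 76.0 and 123 CPM against 144, 118 and 159 CPM. MJ041-treated WT replicate 3 was the highest of its group in each of these lists and also in Cxcl1, Cxcl2, Cxcl3, Cxcl5 and Il6. Replicate 1 was the highest of its group in Cxcl16, Ccl2, Ccl7 and Ccl20. The Kupffer gene Cd163 was at 0 in all WT libraries, the endothelial gene Clec4g was at 0 in 1 vehicle library, and the other defining markers of these 2 lists were counted in every WT library. Lrat of stellate cells was at 0 in 1 vehicle library and Hand2 in 1 treated library. Of other lists, the 12 lymphocyte and neutrophil markers summed to 1.61, 4.06 and 9.33 CPM in WT with MJ041 and to 8.86, 6.8 and 12.9 CPM with vehicle, with Cxcr2 at 0 throughout, and the 6 mesothelial markers to at most 1.77 CPM in any library. The 12 bile duct markers summed to between 317 and 434 CPM in WT with MJ041, between 404 and 618 CPM in WT with vehicle and between 492 and 716 CPM in KO. The part of other cells in the chemokine levels was not tested. In such bulk samples, fewer cells of a type and less RNA per cell cannot be told apart.

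**Figure D4:**
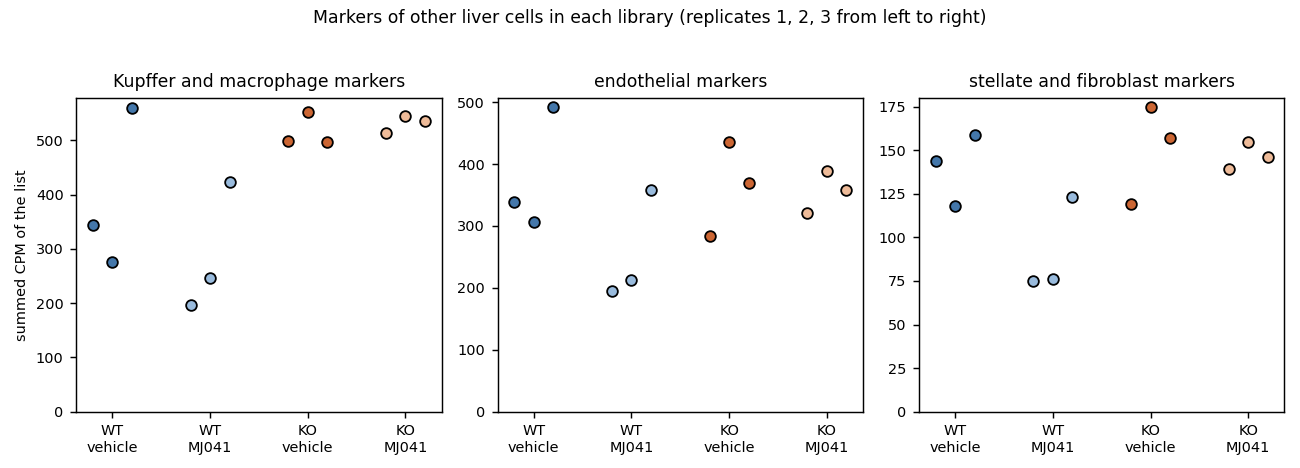
Summed CPM (y axis, from 0) of the Kupffer and macrophage, endothelial, and stellate and fibroblast marker lists in each library (points, replicates 1 to 3 from left to right) of the 4 groups. MJ041-treated WT replicates 1 and 2 had 74.8 and 76.0 CPM of stellate markers, below the other libraries.

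The MJ041 calls in WT were lost in fits that took account of MJ041-treated WT replicates 1 and 2. They were also lost in fits that kept both, given below, and the part of these 2 libraries in the loss was not tested. With all 12 libraries the adjusted p of the called genes (edgeR) lay between 0.0294 and 0.0497, close to the threshold. With the mean marker level as a covariate 0 of the 10 genes passed in edgeR, and 9 had p below 0.05 before adjustment. The log2 fold changes in that fit were -2.11 ± 0.44 for Cxcl3, -1.89 ± 0.41 for Cxcl5, -1.29 ± 0.32 for Ccl2, -1.36 ± 0.28 for Ccl7, -0.53 ± 0.12 for Cxcl16 and -2.97 ± 0.60 for Il6. Without MJ041-treated WT replicates 1 and 2 there were also 0 calls in edgeR, and 7 genes had p below 0.05 before adjustment. With a lone treated WT library left, its spread is taken to be that of the other groups. There Cxcl3 stood at -1.42 ± 0.50, Cxcl5 at -1.25 ± 0.46 and Il6 at -2.21 ± 0.65, while Ccl2 (-1.14 ± 0.27), Ccl7 (-1.17 ± 0.22) and Cxcl16 (-0.41 ± 0.11) moved less. All 10 fold changes stayed negative in both fits.

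**Figure D5:**
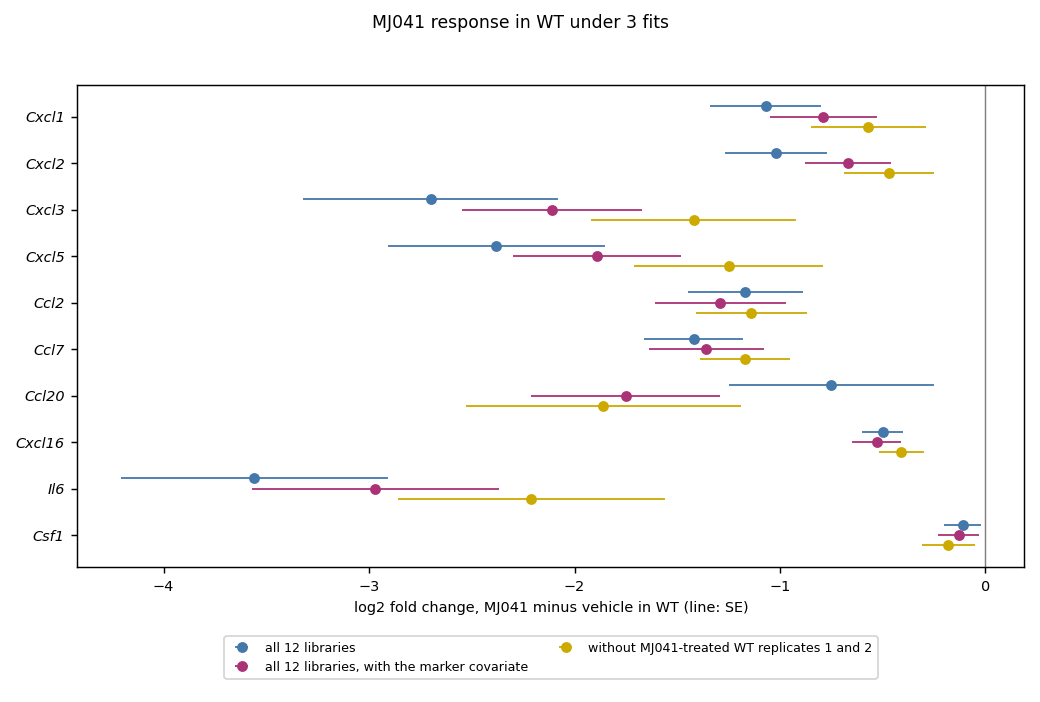
Log2 fold change of MJ041 against vehicle in WT (x axis, line: SE) for each gene (y axis) with all 12 libraries, with the marker covariate, and without MJ041-treated WT replicates 1 and 2. Cxcl3 moves from -2.7 to -2.11 and -1.42, and Ccl2 from -1.17 to -1.29 and -1.14.

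Leaving out 1 library also changed the number of calls for MJ041 in WT. It was 8 without MJ041-treated WT replicate 3, 2 without replicate 1 (Ccl2 and Ccl7) and 0 without replicate 2. Among vehicle-treated WT libraries it was 0 without replicate 1, 6 without replicate 2 and 0 without replicate 3. It was also 0 without any 1 vehicle-treated KO library or without MJ041-treated KO replicate 3, and 3 without MJ041-treated KO replicate 1 or 2 (Cxcl16, Ccl7 and Il6 in both). Cxcl3 moved to -4.64 and Il6 to -5.90 without MJ041-treated WT replicate 3. With only the WT groups in the fit 0 genes passed. DESeq2 and voom each called 8 of the 10, and DESeq2 also called more of all genes than edgeR did (counts in the closing section). The share of all genes called by voom is not given here, so its 8 are not read as a result about these genes.

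Genotype differences were also read in these fits. With vehicle, Kupffer markers summed to 499, 552 and 496 CPM in KO against 344, 275 and 559.8 CPM in WT, and stellate markers to 119, 175 and 157 CPM against 144, 118 and 159 CPM. The Kupffer sum rests largely on 1 gene, Mpeg1, with mean levels of 281 CPM in KO and 131 CPM in WT. Of the 17 tested Kupffer markers 2 rose in KO with vehicle (Vsig4 and Mpeg1) and 1 fell (Cd68, from 109 to 69.1 CPM). The sum is thus no measure of more Kupffer RNA in KO. With the marker covariate Cxcl2 stood at -3.64 ± 0.21 with vehicle, Ccl20 at 1.64 ± 0.28 and Csf1 at 0.47 ± 0.09. The comparison with vehicle holds none of the treated WT libraries, so leaving those out cannot move its fold changes. Under MJ041, where they enter, KO against WT without MJ041-treated WT replicates 1 and 2 was -3.52 ± 0.23 for Cxcl2, 1.36 ± 0.27 for Ccl2, 0.36 ± 0.11 for Cxcl16 and 0.66 ± 0.13 for Csf1. With the marker covariate it was -3.42 ± 0.25 for Cxcl2, 1.56 ± 0.37 for Ccl2, 0.49 ± 0.13 for Cxcl16 and 0.62 ± 0.12 for Csf1. Together with Ccl20 these 5 genes were called in both fits. Under MJ041, KO against WT was called for the same 5 genes without any 1 library except MJ041-treated WT replicate 3, where Cxcl3, Cxcl5 and Il6 were called in addition, as higher in KO.

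Most leukocyte receptors of these chemokines were near 0, while the IL-6 receptor genes Il6ra and Il6st were well counted and Csf1r was low but tested. Cxcr1 and Cxcr2, the neutrophil receptors of the CXC ligands, had 0 counts in each of the 12 libraries, which allows up to 0.165 to 0.185 CPM per library. Ccr2 had 10 counts over all libraries, Ccr3 had 33, Ccr6 had 21 and Cxcr6 had 16, and none of these was tested. Il6ra, the IL-6 binding receptor of hepatocytes, fell from 46.1 to 27.0 CPM in KO with vehicle (log2 fold change -0.77 ± 0.08, adjusted p = 5.4e-06). Its signalling partner Il6st fell from 209 to 163 CPM (-0.35 ± 0.08, adjusted p = 0.0033). Csf1r, the receptor of CSF1 on macrophages, had 6.63 and 4.96 CPM (-0.42 ± 0.39, adjusted p = 0.38).

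Of 14 genes in this receptor list 8 were tested, and 4 fell and 0 rose in KO with vehicle, with a median of -0.60, where 54.5% of all genes were called. The share of receptors called in either direction is thus no higher than that of all genes. By direction, all 4 calls were lower, where 26.9% of all genes were lower and 27.5% higher. The other calls were Sdc4, a syndecan that binds chemokines (-0.29 ± 0.09), and Ccr1 (-1.26 ± 0.50, at 1.46 and 0.605 CPM). The decoy receptors Ackr1 (-0.90 ± 0.39) and Ackr2 (-0.87 ± 0.58) and the syndecan Sdc1 (-0.08 ± 0.06) did not pass. With MJ041 in WT none of the 8 passed, and Il6ra (-0.04 ± 0.08) and Il6st (0.01 ± 0.08) stood close to 0. In KO with MJ041 none passed either.

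Genes of the NF-kB pathway, which carries inflammatory signals to these promoters, were read from a list of 34 of which 33 were tested. In KO with vehicle 21 fell and 7 rose, with a median of -0.37. Over all genes 26.9% fell and 27.5% rose in that comparison, and 1.02% fell and 1.19% rose with MJ041 in WT. This list and those that follow are to be read against these shares. Rela, a main subunit, fell from 195 to 102 CPM (-0.93 ± 0.06, adjusted p = 3.8e-08), Nfkb2, the p100 precursor gene, from 146 to 68.4 CPM (-1.09 ± 0.10) and the inhibitor gene Nfkbib from 51.9 to 27.1 CPM (-0.93 ± 0.09). With MJ041 in WT 5 fell and 0 rose, with a median of -0.24. They were the adaptor Traf1 (-1.88 ± 0.33, adjusted p = 0.029), the kinase Ikbke (-0.79 ± 0.17), the nuclear cofactor Nfkbiz (-0.51 ± 0.11), Nfkb1 (-0.45 ± 0.10) and the feedback inhibitor Tnfaip3 (-0.77 ± 0.18). In KO with MJ041 none passed and the median was 0.

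Sensing receptors and adaptors had 5 rises and 9 falls among 22 tested in KO with vehicle, with a median of -0.26, not far from the 54.5% of all genes called. Il1rap, the accessory chain of the IL-1 receptor, fell by 1.34 ± 0.07, the endotoxin coreceptor Cd14 by 1.51 ± 0.12, from 313 to 109.7 CPM, and the kinase gene Ripk1 by 0.58 ± 0.05 on the log2 scale. In treated WT cells 2 of 22 fell, the IL-1 receptor Il1r1 (-0.66 ± 0.10, adjusted p = 0.029) and the RNA sensor Tlr3 (-0.57 ± 0.10, adjusted p = 0.029). Genes that govern the decay of cytokine transcripts had 3 rises and 10 falls among 15 in KO with vehicle. They included Zfp36l1 (-0.84 ± 0.07), the kinase Mapkapk2 (-0.56 ± 0.05) and the roquin gene Rc3h1 (-0.50 ± 0.05). In treated WT cells Zfp36l1 alone of these passed (-0.34 ± 0.07, adjusted p = 0.037).

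The IL-6 and STAT3 response genes of the hepatocyte had 5 rises and 20 falls among 32 in KO with vehicle, with a median of -0.56. The pentraxin Apcs fell by 2.54 ± 0.11 on the log2 scale, the acute-phase gene Saa1 by 1.42 ± 0.08, from 883 to 329.7 CPM, and the signalling inhibitor Cish by 2.04 ± 0.11. With MJ041 in WT 3 of 32 fell and 0 rose, with a median of -0.15. Socs3, the feedback inhibitor that STAT3 induces, went from 21.9 to 12 CPM (-0.87 ± 0.19, adjusted p = 0.042), Saa3 from 130.3 to 60.8 CPM (-1.10 ± 0.24, adjusted p = 0.043) and the protease inhibitor gene Serpina3n from 258 to 209.7 CPM (-0.30 ± 0.06, adjusted p = 0.039). In KO with MJ041 none of the lists had a call in edgeR. As for the 10 genes, no call for MJ041 in WT in these lists was kept without the 2 WT libraries low in other cells' markers or with the marker covariate, where edgeR called 0 of all genes.

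Among other cytokines, 16 of 21 were tested, and 3 fell and 0 rose with MJ041 in WT. Csf2, which encodes GM-CSF, went from 1.41 to 0.182 CPM (-2.90 ± 0.45, adjusted p = 0.029), the IL-1 receptor antagonist Il1rn from 123 to 66.7 CPM (-0.88 ± 0.19, adjusted p = 0.039) and the alarmin Il33 from 27.5 to 11.2 CPM (-1.30 ± 0.28, adjusted p = 0.042). In KO with vehicle 8 fell and 2 rose, and the 3 with the smallest adjusted p were Il1rn (-1.87 ± 0.19), the CSF1R ligand Il34 (-2.64 ± 0.46) and Ctf1 (1.24 ± 0.23).

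Of the other chemokines, 14 of 29 were tested. In KO with vehicle 5 fell and 3 rose, with a median of -0.52. The B cell attractant Cxcl13 rose from 0.114 to 7.32 CPM (log2 fold change 5.91 ± 0.33, adjusted p = 2.1e-08). Its vehicle-treated WT libraries held 1, 2 and 3 counts, so the size of this rise is uncertain. Ccl5 fell from 196 to 40.4 CPM (-2.28 ± 0.28, adjusted p = 2e-05), and Cxcl9, a ligand of CXCR3, from 65.1 to 26 CPM (-1.32 ± 0.17, adjusted p = 2.5e-05). With MJ041 in WT none passed and the median was -0.77. There Cxcl10, the other highly counted CXCR3 ligand, had means of 81.1 CPM in treated and 198 CPM in untreated cells (-1.28 ± 0.32, adjusted p = 0.058), and Ccl5 stood at -0.66 ± 0.26 (adjusted p = 0.18).

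The genes whose profile over the 12 libraries was most like the average of Cxcl1, Cxcl2, Cxcl3 and Cxcl5 were Hmga2, Adamts4, Cxcl14, Efr3b and Acod1. Likeness was the root mean square difference between log2 CPM values, each centred on the gene's own mean. It was 0.28 for Hmga2, 0.40 for Adamts4, 0.41 for Cxcl14, 0.42 for Efr3b and 0.43 for Acod1, against a median of 1.11 over all genes. Hmga2 encodes a chromatin protein of fetal and tumour tissue, and had 31.0 ± 10.5 CPM in WT with vehicle, 10.1 ± 5.91 in WT with MJ041, 8.20 ± 0.906 in KO with vehicle and 8.11 ± 0.607 in KO with MJ041. Acod1, which makes itaconate in activated macrophages, had 7.98 ± 2.18, 2.82 ± 2.33, 1.84 ± 0.246 and 2.60 ± 0.252 CPM in the same order. Among the 10 genes themselves the measure was 0.39 for Cxcl5, 0.51 for Cxcl1, 0.57 for Ccl7, 0.83 for Cxcl3, 0.91 for Il6, 1 for Cxcl16, 1.14 for Cxcl2, 1.16 for Ccl2, 1.21 for Csf1 and 1.83 for Ccl20. Cxcl1, Cxcl2, Cxcl3 and Cxcl5 make up this average, and Ccl7 was nearer to it than Cxcl2 and Cxcl3, and Il6 and Cxcl16 nearer than Cxcl2. These values describe 12 libraries in 4 groups.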

How the data were processed

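RNA was sequenced from 12 libraries of primary mouse hepatocytes in 4 groups of 3. The authors deposited raw counts of reads per Ensembl gene, without normalization. Per the labels' protocols, total RNA was made into stranded libraries. Build mm39 and the tools STAR 2.7.10b, Trimmomatic 0.34, featureCounts, FastQC and DESeq2 are named in the submitters' processing notes. Strand, multimapping and annotation settings are not given in the sources used here. Symbols came from a table that matched 52081 of 55414 identifiers, and 14885 of 14919 tested ones.

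Genes were filtered with filterByExpr (minimum count 10) and scaled by TMM, and 1 quasi-likelihood model of the 4 groups was fitted to all 12 libraries with edgeR 4.0.16 in R 4.3.3. Each standard error was derived from the log2 fold change and its F statistic, and 95% intervals from the total degrees of freedom. The Benjamini-Hochberg adjustment ran over the 14919 tested genes, and calls need an adjusted p below 0.05. The code was first tested on simulated counts. Alternatives were limma 3.58.1 (voom), DESeq2 1.42.0, another scaling, no filter, the groups compared alone, a replicate block, and leaving out each library. The marker covariate (mean log2 CPM of the Kupffer, endothelial and stellate lists, prior count 2) and the fit without MJ041-treated WT replicates 1 and 2 were chosen after seeing the data.

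The 10 genes, the lists and the rules were chosen with earlier results of these data known. All 10 genes and Hnf4a are named. Of each list the 3 called genes with the smallest adjusted p are named, or the 2 with the highest mean where none was called (for MJ041 in KO only counts and medians are given), and all receptors. Further list members were named after their values were seen where 5 or fewer were called. The 5 most alike genes are named by the measure given. Marker lists of lymphocytes and neutrophils, mesothelium and bile ducts were also read. No 2 libraries of a group were alike within counting noise (chi-square over its degrees of freedom, 4.75 to 16). Protein sequences, and promoters of Cxcl5, Cxcl16, Ccl2 and Ccl7, were not used here.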

Additional observations from a re-analysis of the deposited data

How the results depend on the processing

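Calls for MJ041 in WT depended on the processing, and the cause was not tested. Against 6 of the 10 genes and 329 of all genes, edgeR called 0 and 0 with the marker covariate, 0 and 0 with only the groups compared, and 0 and 0 without MJ041-treated WT replicates 1 and 2 (before adjustment 9, 8 and 7 of the 10 and 1936, 2656 and 725 of all genes had p below 0.05). Without the filter on low counts, where every gene with any count was tested, it called 1667 genes. DESeq2, with the filter, called 894. Leaving out 1 library in turn gave 0 to 8 of the 10 and 0 to 1840 of all genes. For MJ041 in KO, 15 genes were called without the filter and 1 by DESeq2, none of the 10. For the interaction, 7 of the 10 and 886 genes in all were called without the filter. DESeq2 called 2 of the 10 and 218 of all genes, and leaving out 1 library gave 0 to 5 and 0 to 756. For KO against WT with MJ041, leaving out 1 library gave 5 to 8 of the 10 and 7187 to 8154 of all genes.

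Directions turned only for differences that were not called in the main edgeR fit of the 4 groups. Of these, Cxcl3 and Cxcl5 in KO against WT with MJ041 were called without MJ041-treated WT replicate 3. There they were higher in KO (2.39 and 1.39), while they were negative in other fits given below. In KO with MJ041, Ccl7 was at 0 with the marker covariate. With 1 library left out the MJ041 response in KO ran from -0.49 to 0.12 for Cxcl5, from -0.13 to 0.14 for Ccl2, from -0.12 to 0.12 for Ccl7, from -0.01 to 0.18 for Ccl20 and from -0.1 to 0.1 for Csf1. KO against WT with MJ041 ran from -0.48 to 0.15 for Cxcl1, from -0.38 to 1.39 for Cxcl5 and from -0.1 to 0.37 for Ccl7. It was -0.43 for Cxcl3 and -0.73 for Cxcl5 with the marker covariate, and -0.78 for Cxcl3, -1.07 for Cxcl5 and -0.06 for Ccl7 without MJ041-treated WT replicates 1 and 2.

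Replicate numbers are shared by the groups, but libraries of the same number did not deviate together in every pair (correlations from -0.01 to 0.5 between the WT groups and from 0.04 to 0.46 between the KO groups), so the numbers were not taken as pairs. With a replicate block, MJ041 in WT gave 649 calls over all genes and 7 among the 10, and KO against WT with vehicle gave 6 of the 10, without Il6 (adjusted p = 0.054). Depth limits Il6 and Ccl20 most, with 0 to 53 and 6 to 71 counts per library.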
